A study of Mus musculus with 6 samples.

Results

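The retinal cell types that are born last were followed through 10 genes: Vsx1, Bhlhe23, Grm6, Trpm1, Cabp5 and Prkca of bipolar cells, and Rlbp1, Glul, Slc1a3 and Aqp4 of Müller glia. Open chromatin was mapped in whole mouse retinas at E14.5 (embryonic day; strain C57BL/6) by ATAC-seq (the Tn5 transposase cuts accessible DNA and tags it for sequencing). The 3 wild-type libraries were Atoh7 +/+. The other 3 were Atoh7 SE/SE, homozygous for an altered shadow enhancer of Atoh7, a basic helix-loop-helix factor needed for retinal ganglion cells. Each library came from the pair of retinas of 1 embryo, so replicates are separate animals. The tissue is a mixture, and fewer cells of a type cannot be told apart from less open chromatin in each cell. Peaks (GRCm38) were kept when the summit lay inside a member gene, or when a member was the protein-coding gene with the nearest end within 100 kb. The peaks of the 6 libraries formed 46780 regions when those that shared 1 bp or more were merged. Of these, 33 belonged to the 10 genes: 13 to the 6 bipolar genes and 20 to the 4 glial genes.

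Bipolar cells carry signals from photoreceptors to ganglion cells. ON bipolar cells respond to glutamate through the receptor mGluR6 and the channel Trpm1. Müller glia span the whole retina and clear glutamate, ammonia, water and retinoids from around the neurons. Both types arise mostly after birth, from progenitors that at this stage still produce ganglion cells, cones, amacrine cells and horizontal cells. The peaks below therefore describe chromatin in a tissue that holds few or no finished cells of either type.

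The SE/SE lists were longer, with 39115, 42722 and 44242 peaks against 31340, 34797 and 27873 for wild type. Per the labels' protocols, the SE/SE libraries had 15, 16 and 16 PCR cycles and the wild-type libraries 17, 18 and 19. These cycle numbers are given by genotype only, and their part cannot be told apart from that of the genotype. The files give no counts, and the depth is unknown. The authors' signal value per peak was read as a percentile within its own list, where 100 is the strongest. Percentiles from lists of different length cannot show a change: an additional weak peak raises the percentile of all those above it. Each genotype also has a joint list, with 104991 peaks for wild type and 120772 for SE/SE. As a check of the tissue, all 5 markers of retinal neurons and progenitors, among them Elavl3, Neurog2 and Pax6, had a start-site peak in every library. For markers of other tissues it was 4 of 10 for pigment epithelium and 1 of 5 for microglia in every library, 1 to 2 of 5 for endothelium, and 1 to 3 of 5 for astrocytes (3 in SE/SE libraries 2 and 3, 1 in the other 4). Their part in the results was not tested.

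Promoter sequences are shown for 6 members, since each cell type held start sites with and without a library peak. Each is the 250 bases before the RefSeq start site in GRCm38.p6, 5′ to 3′ along the gene, with each CpG in capitals. The first 4 lie at starts that had a peak summit within 1 kb in all 6 libraries. The last 3 lie at starts without one in any library.
Slc1a3, minus strand, chr15:8710808-8711057: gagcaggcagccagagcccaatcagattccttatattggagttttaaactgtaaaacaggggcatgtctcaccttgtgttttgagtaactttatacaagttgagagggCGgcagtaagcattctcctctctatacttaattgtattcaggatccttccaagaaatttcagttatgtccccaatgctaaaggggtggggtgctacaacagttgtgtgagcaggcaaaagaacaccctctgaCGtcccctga
Vsx1, minus strand, chr2:150689138-150689387: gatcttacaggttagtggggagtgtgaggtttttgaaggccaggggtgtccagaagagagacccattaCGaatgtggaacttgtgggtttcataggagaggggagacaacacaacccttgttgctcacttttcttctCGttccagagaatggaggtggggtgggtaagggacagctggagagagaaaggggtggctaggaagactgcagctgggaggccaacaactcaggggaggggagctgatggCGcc
Trpm1, second start, plus strand, chr7:64185209-64185458: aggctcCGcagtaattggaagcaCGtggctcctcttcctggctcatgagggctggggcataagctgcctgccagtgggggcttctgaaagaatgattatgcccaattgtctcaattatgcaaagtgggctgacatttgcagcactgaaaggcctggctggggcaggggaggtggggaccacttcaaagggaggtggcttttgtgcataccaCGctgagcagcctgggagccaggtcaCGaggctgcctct
Glul, plus strand, chr1:153899679-153899928: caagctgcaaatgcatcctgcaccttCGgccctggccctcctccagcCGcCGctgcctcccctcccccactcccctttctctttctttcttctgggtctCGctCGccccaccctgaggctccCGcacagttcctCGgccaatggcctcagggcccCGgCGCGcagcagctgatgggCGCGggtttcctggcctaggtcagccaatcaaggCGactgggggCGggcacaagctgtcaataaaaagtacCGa
Trpm1, first start, plus strand, chr7:64153585-64153834: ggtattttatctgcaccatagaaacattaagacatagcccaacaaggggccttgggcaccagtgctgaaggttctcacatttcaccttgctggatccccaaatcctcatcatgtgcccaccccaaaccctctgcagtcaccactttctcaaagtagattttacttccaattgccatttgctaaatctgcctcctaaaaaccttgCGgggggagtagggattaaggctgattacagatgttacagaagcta
Cabp5, plus strand, chr7:13397905-13398154: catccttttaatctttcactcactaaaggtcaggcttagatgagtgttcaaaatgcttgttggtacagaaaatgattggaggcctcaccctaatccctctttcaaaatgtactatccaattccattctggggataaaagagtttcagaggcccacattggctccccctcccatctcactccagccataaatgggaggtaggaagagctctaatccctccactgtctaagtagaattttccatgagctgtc
Bhlhe23, minus strand, chr2:180776901-180777150: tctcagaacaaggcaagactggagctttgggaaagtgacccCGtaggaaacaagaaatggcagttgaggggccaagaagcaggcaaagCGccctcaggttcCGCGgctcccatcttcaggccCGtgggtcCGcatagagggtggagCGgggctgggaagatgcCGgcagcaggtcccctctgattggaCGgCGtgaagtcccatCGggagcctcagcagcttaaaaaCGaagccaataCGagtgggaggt

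CpG-rich promoters tend to be open in most tissues, so these sequences were read against the 21263 protein-coding promoters of the same table. Of those with 5 or fewer CpG, 10.4% had a summit within 1 kb of the start in all 6 libraries and 85.4% in none. With 6 to 15 CpG it was 71.3% and 19.7%, and with 16 or more it was 93.1% and 2.64%. Slc1a3 holds 2 CpG, Vsx1 3 and the second start of Trpm1 4, so these 3 starts with a peak belong to the CpG-poor class that mostly had none. Bhlhe23 is the reverse case, with 13 CpG and no library peak. Glul, with 15 CpG and a peak, Cabp5, with 0 and none, and the first start of Trpm1, with 1 and none, lie with the majority of their class. Among members not printed, Prkca holds 39 CpG and had a peak in all 6 libraries, and Rlbp1 holds 6 and had none in any. Grm6 holds 4 and had one in the SE/SE libraries only. Both joint lists had a start-site peak at Rlbp1 and at Grm6. Of short motifs, 6 were searched in the 250 bases, on both strands. TAATCC, the type of site that Crx and Otx factors bind, occurred at 2 positions in Cabp5 and 1 in the first start of Trpm1, against 5.82% of all promoters with at least 1. The E-box CAGCTG occurred at 2 positions in Vsx1 and 1 in Glul (12.1% of all promoters), and the E-box CAGATG at 1 in the first start of Trpm1 (12.4%). The other motifs were in none of these windows of the 9 members with an entry. They were TAATTA, a homeodomain type (4.31% of all promoters). The Sox type ACAATG was held by 9.35%. The nuclear factor I half-site TTGGCA was held by 11.5%. A match describes letters only.

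A start-site peak, with its summit within 1 kb of a start, was present in all 6 libraries for 5 of the 10 members: Vsx1, Trpm1 and Prkca among the bipolar genes, and Glul and Slc1a3 among the glial genes. The share over 17492 protein-coding genes was 57.6%. Grm6 had a start-site peak in the 3 SE/SE libraries and in 0 wild-type libraries, a pattern found in 0.703% of those genes. Bhlhe23 and Rlbp1 had none in any library but had 1 in both joint lists. Cabp5 had none in any of the 8 lists, and neither did Aqp4, which was read at both gene ends because it has no start-site entry. Bipolar and glial genes were thus alike in this share, 3 of 6 and 2 of 4, and each type held starts with and without a library peak.

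The bipolar genes are taken by role, beginning with the transcription factors. Vsx1, a homeodomain factor of cone bipolar cells (chr2:150680702-150689137, minus strand), had 3 regions. The strongest, chr2:150688516-150689196, begins inside the gene and ends just upstream of it, with a summit 517 bp downstream of the start. Its percentiles were 31.8, 53.4 and 21.8 in wild-type libraries 1 to 3 and 62.3, 69.1 and 63.1 in SE/SE libraries 1 to 3. In the joint lists it stood at 87.1 and 89.9. All 3 SE/SE values lay above the wild-type values, in lists that are also longer. The peak reached over the start site itself in the 3 SE/SE libraries and in no wild-type library. In the joint lists it reached over the start in both genotypes. How many other start sites differ in this way was not counted, so no genotype difference is read from it. The other Vsx1 regions lie 10574 and 14036 bp downstream of the start, beyond the 3′ end, and were in 3 SE/SE libraries each and in 1 and 2 wild-type libraries.

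Bhlhe23, a helix-loop-helix factor of rod bipolar cells (chr2:180774381-180776900, minus strand), had 1 region in the libraries. It was a weak peak at chr2:180759010-180759156, 17.8 kb downstream of the start, present in wild-type library 2 only, at percentile 8.1. The joint lists placed 14 wild-type and 12 SE/SE peaks near Bhlhe23. The joint peak over that region stood at percentile 71.1 in wild type and 66.2 in SE/SE. A joint peak also covered its start site, at 8.2 and 8.4, among the weakest of those lists. Bhlhe23 was the only member with a region in more wild-type than SE/SE libraries.

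The transduction genes of ON bipolar cells differed from each other. Grm6 encodes mGluR6 (chr11:50850369-50866208, plus strand). Its 1 region, chr11:50851152-50851565 inside the gene, was absent from the 3 wild-type lists. In SE/SE libraries 1 to 3 it had signal values of 20.6, 20.3 and 87.6, where 20 is the lowest value any list holds, at percentiles 0.4, 0.2 and 26.9. The region was thus just above the limit of the list in 2 of the 3. The joint wild-type list had a peak at the same place, at percentile 76.2, and the joint SE/SE list one at 80.0. Grm6 was thus called in the joint wild-type list and in no single wild-type list.

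Trpm1, the cation channel that mGluR6 signalling keeps closed in the dark (chr7:64153835-64269772, plus strand), has 2 RefSeq start sites, at 64153835 and 64185459. The first had no summit within 1 kb in any library. The second, shown above, had a peak in all 6 at chr7:64185105-64185586, with percentiles of 53.8, 64.0 and 45.1 in wild type and 69.7, 70.1 and 72.3 in SE/SE, and 86.4 and 88.9 in the joint lists. Its summit lay between -60 and -79 bp of that start across the libraries. This start, inside the gene as its longest form is annotated, was the open one in every list. Another region 2.04 kb downstream of the first start was in wild-type libraries 1 and 2 and the 3 SE/SE libraries, and the last, 9.78 kb downstream, in SE/SE library 3 only.

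The calcium-dependent proteins were at the extremes. Cabp5, a calmodulin-like protein of bipolar cells (chr7:13385960-13408887, plus strand), had no region and no joint peak. Of the protein-coding genes, 27.6% had no region. Prkca, the protein kinase C that marks rod bipolar cells (chr11:107933387-108343888, minus strand), is by far the longest member at 411 kb and is also used in many other cells. Its start-site region, chr11:108343339-108344355, had percentiles of 78.8, 84.8 and 80.9 in wild type and 86.4, 86.6 and 87.4 in SE/SE, the highest of any bipolar gene. Of its other 4 regions, all inside the gene, 1 was in all 6 libraries: chr11:108162132-108162479, 182 kb from the start. The other 3 were in all SE/SE libraries, in 1 or 2 wild-type libraries, and never in wild-type library 3. The joint lists held 21 and 32 Prkca peaks, of which 20 and 31 lay inside the gene.

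**Figure D1:**
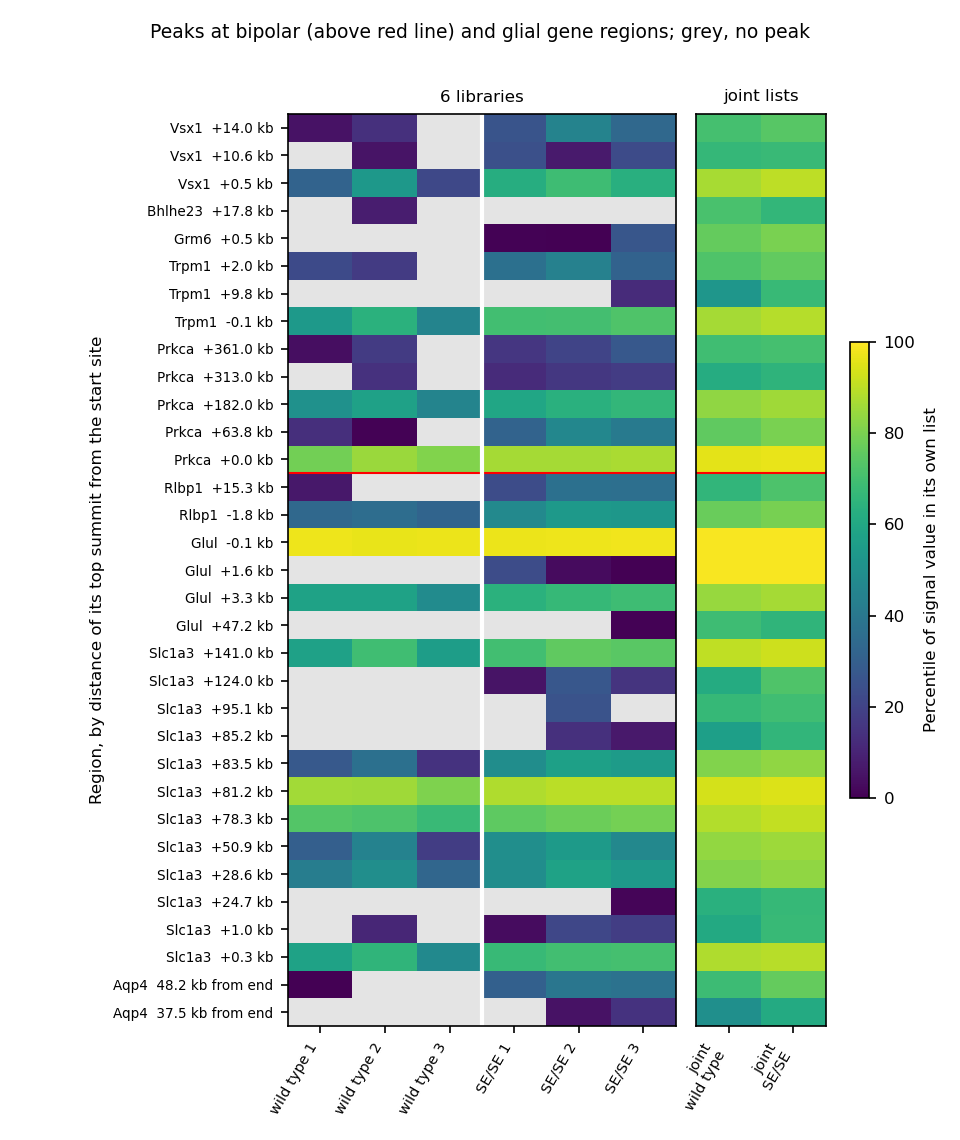
Percentile of the signal value in its own list (colour; grey, no peak) for the 33 regions (rows, named by gene and distance from the start site) in the 6 libraries and 2 joint lists (columns). The start of Glul is near 97 in every library, and the 3 regions in 3 SE/SE and 0 wild-type libraries (at Grm6, Glul and Slc1a3) lie under a peak in both joint lists.

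Among the glial genes, the 2 genes of glutamate handling held the regions with the highest percentiles. Glul encodes glutamine synthetase, which joins glutamate and ammonia (chr1:153899929-153909723, plus strand). Its start-site region, chr1:153899419-153900729, had percentiles of 97.3, 96.8 and 97.1 in wild type and 97.0, 97.5 and 97.9 in SE/SE. It ranked 910 of 104991 and 1001 of 120772 in the joint lists. The 6 libraries spanned about 1 percentile point, and the genotypes overlapped. A second region in all 6, chr1:153902920-153903408, lies 3.33 kb downstream of the start, with percentiles from 48.1 to 57.5 in wild type and from 63.7 to 68.8 in SE/SE.

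Another Glul region, chr1:153901240-153901550, was in the 3 SE/SE libraries and in 0 wild-type libraries. Its percentiles were 23.4, 3.1 and 0.1, so it stood near the limit of 2 of the 3 lists. In both joint lists these bases lay inside the same peak as the start site. The number of Glul peaks was 2, 2 and 2 in wild type and 3, 3 and 4 in SE/SE, so the groups did not overlap.

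Slc1a3 encodes the glutamate transporter GLAST (chr15:8634124-8710807, minus strand), which is already used by retinal progenitors and radial glia before Müller glia form. It had 12 regions, more than 98.4% of protein-coding genes, whose median was 1. Peaks numbered 9, 9 and 8 in wild type and 9, 11 and 11 in SE/SE, so the groups overlapped. Its start-site region, chr15:8710151-8710864, had percentiles of 57.6, 65.5 and 47.4 in wild type and 67.2, 69.9 and 70.7 in SE/SE. Its CpG-poor promoter is the first shown above.

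The strongest Slc1a3 peaks were not at the start. Of the 12 regions, 7 lie beyond the 3′ end of the gene, where no other protein-coding gene had a nearer end. With genes of every type considered, 15 of the 20 glial regions stayed, so some of these 7 may lie nearer to another type of gene. The strongest, chr15:8629088-8629943, lies 4478 bp past that end and 81.2 kb from the start. It had percentiles of 86.3, 85.9 and 80.8 in wild type and 88.2, 89.6 and 89.7 in SE/SE, above the start-site region in every library. The most distant, chr15:8568718-8569550, lies 64694 bp past the end, with percentiles from 55.7 to 69.3 in wild type and from 69.7 to 75.4 in SE/SE. In all, 7 of the 12 regions were in all 6 libraries: 4 past the end and 3 inside the gene. A further region past the end, chr15:8587108-8587279, was in the 3 SE/SE libraries only, at percentiles 5.3, 27.2 and 15.0. The joint lists held a peak there in both genotypes, at 61.6 and 72.4.

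**Figure D2:**
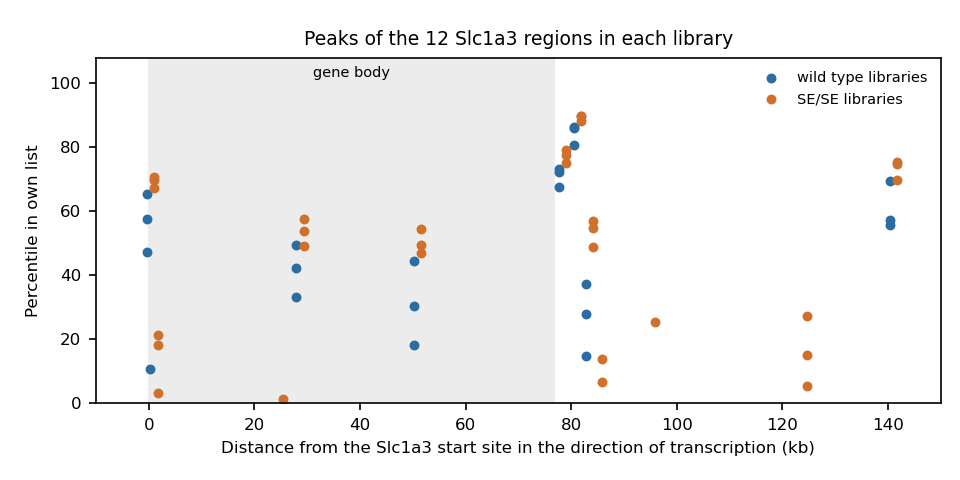
Percentile in its own list (y axis) of each library's peak in the 12 Slc1a3 regions against distance from the start site along transcription in kb (x axis); grey marks the gene body, and points of the genotypes are set slightly apart for legibility. The regions at 78.3 and 81.2 kb, past the gene's 3′ end, stand above the start-site region in all 6 libraries. The region at 83.5 kb stands below it in all 6. The region at 85.2 kb has a peak in SE/SE libraries 2 and 3 only, below it in both.

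Rlbp1 and Aqp4 had lower library percentiles than the strongest regions of Glul and Slc1a3. Each had 2 regions, more than 58.0% of protein-coding genes. Their strongest joint peaks stood at 77.2 (wild type) and 79.5 (SE/SE) for Rlbp1, and at 68.6 and 76.5 for Aqp4. Rlbp1 encodes CRALBP, the retinaldehyde-binding protein of Müller glia and pigment epithelium (chr7:79374865-79392250, minus strand). Its region in all 6 libraries, chr7:79388734-79389004, has its summit at -1826 bp relative to the RefSeq start used here, inside the longest annotated span of the gene. Percentiles there were 33.9, 35.7 and 32.2 in wild type and 47.1, 53.8 and 53.1 in SE/SE. At the start itself only the joint lists had a peak, at 48.1 and 57.9. The other Rlbp1 region lies 15.3 kb downstream of the start and was in wild-type library 1 and the 3 SE/SE libraries.

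Aqp4 encodes the water channel of glial end feet (chr18:15389394-15410982). Its 2 library regions both lie outside the gene. The region chr18:15340997-15341228, 48237 bp from the nearer gene end, was at percentile 0.1 in wild-type library 1, was absent from wild-type libraries 2 and 3, and stood at 30.5, 39.3 and 37.6 in SE/SE. The region chr18:15351828-15351962 was in SE/SE libraries 2 and 3 only. No Aqp4 region was in all 6 libraries, and the 4 joint peaks inside the gene in each genotype overlapped none of the library regions.

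Set against each other, glial regions were in more libraries than bipolar regions, with 10 of 20 (50%) in all 6 against 4 of 13 (30.8%). Over all 46780 regions the share was 52.1%, so the glial share was near the background and the bipolar share lower. With lists of equal length the shares were 83.3% (glial), 57.1% (bipolar) and 72.4% (all regions). Regions are not replicates, and no test was made of this difference. The glial figure leans on Slc1a3: without it 3 of 8 glial regions (37.5%) were in all 6. Wild-type library 3, with the shortest list, weighed on the bipolar figure. Without that library 61.5% of bipolar regions were in the remaining 5, against 50% of glial and 58.2% of all regions. The order of the 2 types thus turned with 1 library.

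By library, the bipolar genes had 9, 11 and 4 peaks in wild type and 11, 11 and 12 in SE/SE. Their means were 8.0 ± 3.61 and 11.3 ± 0.577 peaks (SD, n = 3 libraries each), a ratio of 1.42. The glial genes had 14, 12 and 11 against 15, 18 and 19, with means of 12.3 ± 1.53 and 17.3 ± 2.08 (SD, n = 3 each), a ratio of 1.41. The bipolar groups touched at 11 peaks, and the glial groups did not overlap. The ratio was thus nearly the same for both types, in lists that are longer in SE/SE throughout. The whole lists did not overlap either, with 27873 to 34797 peaks in wild type and 39115 to 44242 in SE/SE.

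By gene, peak numbers were higher in every SE/SE than in every wild-type library for Grm6 and Glul, 2 of the 10 members. The share was 15.2% of the 15840 genes with any peak, with 0.852% in the reverse direction and 0 members there.

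**Figure D3:**
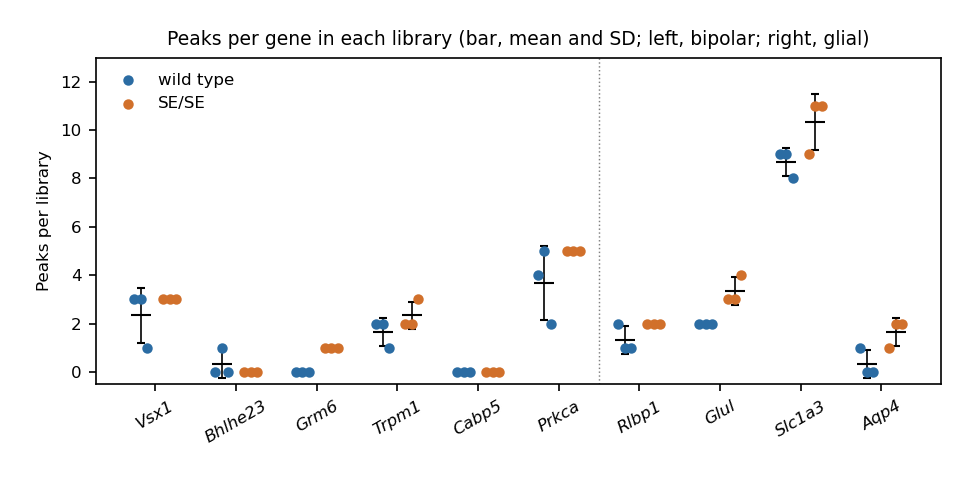
Number of peaks per library (y axis) for the 10 genes (x axis), with 1 point a library and bars for the mean and SD of 3 libraries. Slc1a3 has 8 to 11 peaks in every library, Cabp5 has 0 in all 6, and the genotypes are apart for Grm6 and Glul only.

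Regions in 3 SE/SE and 0 wild-type libraries numbered 1 of 13 for bipolar genes, at Grm6, and 2 of 20 for glial genes, at Glul and Slc1a3. Such regions made up 8.23% of all regions, so both counts were near the background. The reverse pattern, found in 0.0321% of all regions, was seen at 0 member regions. All 3 member regions of this kind had peaks in both joint lists. When each list was cut to the 27873 strongest peaks, the length of the shortest, none of the 3 had a peak in any library, and 1.38% of all regions showed it. At that length the only member region in 3 SE/SE and 0 wild-type libraries was the Aqp4 region 48237 bp from the gene.

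The joint lists were richer for both types, and more so for bipolar genes. They held 51 wild-type and 64 SE/SE peaks at bipolar genes, of which 25.5% and 20.3% overlapped a library region. At glial genes they held 43 and 48, of which 44.2% and 39.6% did. For the whole lists the shares were 39.5% and 34.0%. Most joint peaks of either type were thus in no single library. The median percentiles of the bipolar joint peaks were 39.5 and 42.3, against 51.9 and 56.2 at glial genes. Joint SE/SE peaks with no wild-type joint peak over them were 17 of 64 (26.6%) at bipolar and 8 of 48 (16.7%) at glial genes, against 22.0% of the whole list. Prkca alone held 21 of the 51 wild-type and 32 of the 64 SE/SE joint peaks at bipolar genes, and most of those 17. The bipolar figures thus lean on 1 long gene, and the difference between the types was not tested.

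To compare genotypes without the effect of list length, each library's regions were ranked within the 24370 regions present in all 6, and limma was fitted to the log2 odds of that percentile over all of them. Of the 14 member regions among these, limma called 0 at an adjusted p of 0.05, and 2 had an unadjusted p below that value, against 5894 of all 24370 shared regions. The members thus held no excess of low p, and the 2 are described for their values only. Over all shared regions it called 1.77% higher and 1.16% lower in SE/SE. The first of the 2 was the start-site region of Vsx1, with percentiles among shared regions of 16.6, 34.5 and 15.6 in wild type and 40.1, 46.0 and 33.3 in SE/SE. The groups overlapped slightly, since wild-type library 2 passed SE/SE library 3. Its difference was 1.29 ± 0.416 (SE) in log2 odds, with a 95% interval from 0.33 to 2.25 and an adjusted p of 0.12 by limma. It passed the threshold without wild-type library 2, at 1.75 with an adjusted p of 0.02 by limma. That run called 950 regions higher and 511 lower of 24534. With any other single library left out the Vsx1 difference was 0.83 to 1.49, with adjusted p from 0.21 to 0.34 by limma. On signal values centred on each library's median it was 1.22, also past the threshold, on a scale that called 1992 regions higher and 5538 lower. On unscaled values all 14 member regions were called higher, with 22297 of 24370 regions, so that scale singles out none of them.

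The second was a Slc1a3 region past the gene's end, chr15:8627176-8627543, with 13.2, 14.2 and 9.7 in wild type and 19.8, 25.4 and 19.5 in SE/SE. The groups did not overlap, which held in this direction for 12.3% of all shared regions. Its difference was 0.97 (95% interval from 0.22 to 1.73, adjusted p = 0.13 by limma). Another Slc1a3 region, chr15:8682030-8682387 inside the gene, was lower in every SE/SE library, with 27.9, 28.9 and 26.4 against 19.9, 26.3 and 17.9, a pattern held by 18.6% of shared regions. Its difference was -0.51 (95% interval from -1.11 to 0.09, adjusted p = 0.27 by limma). On median-centred signal values it was 0.02. On unscaled values it was 0.84, where the median of all regions was 0.767. These 2 were the only member regions whose groups were apart.

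The other 11 shared regions had differences from -0.22 to 0.39, none past the threshold in limma. Glul at its start stood at 95.1 to 96.6 among shared regions in all 6 libraries, with a difference of -0.22 (95% interval from -0.56 to 0.12). Prkca at its start differed by 0.07 (from -0.24 to 0.37) and Slc1a3 at its start by 0.07 (from -0.33 to 0.48). Among these 11 the widest intervals were those of a Slc1a3 region inside the gene, chr15:8659503-8659952, from -1.15 to 1.05, and of Rlbp1, from -0.86 to 0.81.

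**Figure D4:**
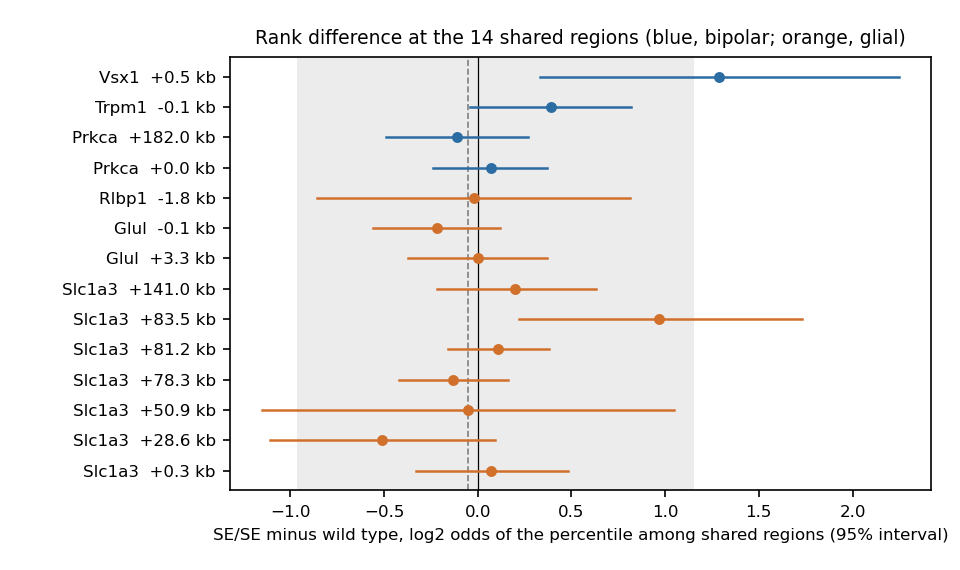
Difference between SE/SE and wild type in log2 odds of the percentile among shared regions (x axis; points, estimates; lines, 95% intervals from limma) at the 14 member regions in all 6 libraries (y axis); the grey band spans the 5th to 95th percentile of all 24370 regions and the dashed line their median. Vsx1 at 1.29 and a Slc1a3 region at 0.97 have intervals above 0, and the other 12 intervals include 0.

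Longer lists of genes of the same cell types placed the 10 members. Of 20 other bipolar genes, 8 (40%) had a start-site peak in all 6 libraries, among them the transcription factors Irx5, Irx6 and Lhx4. Of 20 other Müller glia genes it was 14 (70%), among them the carbonic anhydrases Car14 and Car2 and the secreted chaperone Clu. Lhx2 of the Müller list also stands in the progenitor list below. Per library, the bipolar list had 9 to 11 such genes in wild type and 11 to 12 in SE/SE, and the glial list 14 to 15 and 15 to 17. The 2 genotypes thus lay close together in both lists, and the 2 lists were farther apart than the genotypes.

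For comparison, 18 late phototransduction genes of photoreceptors held 0 genes with a start-site peak in all 6 libraries, and 17 of them had none in any library. Of 12 retinal progenitor genes, 11 (91.7%) had one in all 6, among them Ccnd1 and Hes1. The members, at 3 of 6 and 2 of 4, thus lay between these 2 lists. Cabp5, with no peak in any list, resembled 12 of the phototransduction genes, which had no start-site peak in any of the 8 lists. Genes of these lists without a start-site entry, 8 of 20, 8 of 20, 7 of 18 and 6 of 12, were read at both gene ends.

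**Figure D5:**
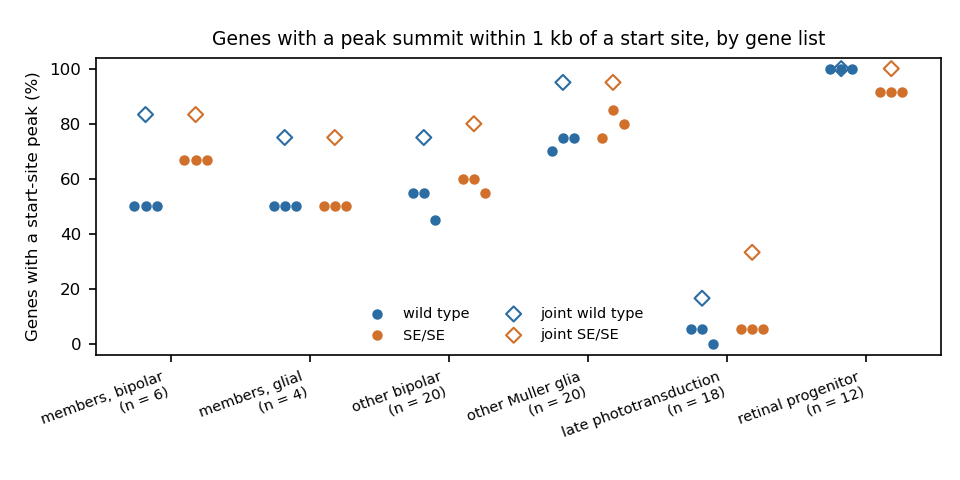
Percent of the genes of each list with a peak summit within 1 kb of a start site (y axis), by list (x axis; n, genes), with 1 filled point a library and open diamonds for the joint lists. In the libraries late phototransduction genes lie at or near 0, with 3 and 6 of 18 in the joint lists; progenitor genes lie above 90, and the members at 50 in wild type.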

How the data were processed

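The authors deposited 8 narrowPeak lists, 1 for each of 6 libraries and 1 joint list for each of 2 genotypes; the sources used here do not give how the libraries were joined. Per the submitters' processing notes, cutadapt, BWA, Genrich 0.5, bedtools 2.27.0, limma and GRCm38 (mm10) were used, without their roles; duplicate removal and the Tn5 shift are not given. Each deposited peak has a signal value, tied to peak width, a score equal to 1000 times that signal over the width (capped at 1000), and −log10 p-values. No scaling between lists is given, so the authors' signal was used in the main comparisons as a percentile within its list or among shared regions; raw and median-centred log2 signal served as alternatives only. Depth is unknown.

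Peaks were merged at 1 bp overlap and assigned to 21887 protein-coding RefSeq genes of GRCm38.p6, whose table gives spans without exons, so exons, introns and UTRs were not told apart. Start sites came from the RefSeq promoter table, and Aqp4 has no entry there. Ranks among shared regions were tested with limma 3.58.1 (R 4.3.3, with trend, no replicate block and Benjamini-Hochberg over all 24370 regions). On simulated data with 200 regions shifted by 2 log2 odds, it called 142 regions, 139 of them shifted. The largest member difference, 1.29, was below that shift, and smaller shifts were not simulated, so regions not called may still differ. Other steps used Python 3.11.15, pandas 2.3.3 and numpy 2.4.6. Replicates are 3 libraries a genotype, and 3 against 3 allows no exact p under 0.1. The members and all gene lists were chosen with earlier results of these data known, so counts over them support nothing independently. All 10 members are named, with for each the region strongest in the joint lists and every region in 3 libraries of one genotype and 0 of the other; of other lists, up to 3 genes open in all 6 libraries, in alphabetical order, and up to 2 open in one genotype alone; some genes of these lists are not reported here by name. Regions named beyond that were chosen after their values were seen. Alternatives covered the overlap, gene distance, gene set, list length, a signal minimum of 100, the scale of the signal, the start-site distance, the replicate block and each library left out. The 100 kb limit lay between Slc1a3 peaks: in the libraries the farthest inside lay 65195 bp and the nearest outside 114200 bp from the gene.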

Additional observations from a re-analysis of the deposited data

How the results depend on the processing

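Counts of regions in 3 SE/SE and 0 wild-type libraries (1 bipolar, 2 glial) moved with the lists used. With lists of equal length they were 0 of 7 bipolar and 1 of 12 glial regions, against 1.38% of all regions. With a signal of at least 100 they were 2 of 7 and 1 of 12, against 9.28%. Those were other regions, since the Grm6, Glul and Slc1a3 regions had signals below 100 in every library. With the nearest gene taken among all genes of the table the glial count was 1 of 15, against 8.23%. Leaving out 1 library gave 1 to 3 bipolar and 2 to 4 glial regions: 3 bipolar without wild-type library 2, and 4 glial without wild-type library 1 or SE/SE library 1. The share of all regions moved too, from 8.23% to 15.1%, 9.62% and 14.6% in these 3 settings. The share of regions in all libraries was 57.1% (bipolar) and 83.3% (glial) at equal length, against 72.4% of all regions, and 30.8% to 61.5% and 50% to 55.6% with 1 library left out. Joining peaks at 50% overlap or a 50 kb distance moved neither count. Start-site peaks in all libraries were found for 4 members within 500 bp (without Vsx1), 6 within 2 kb (with Rlbp1), and 5 under every other alternative run, which included any part of the peak within 1 kb, chosen after seeing the data. At equal length and within 500 bp Grm6 had no start-site peak in any library.

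Shared member regions called by limma numbered 14 on unscaled log2 signal, where 22297 of 24370 regions were called higher in SE/SE and the median difference of all regions was 0.767. After centring on each library's median it was 3: Glul at its start (-0.41), Vsx1 (1.22) and the Slc1a3 region past its end (1.03). Over all regions the calls were then 1992 higher and 5538 lower, against 431 and 282 on ranks. With 1 library left out the count was 0 to 1, and it was 0 with the sum of signals or a minimum of 100, where the Vsx1 region and 2 of Slc1a3 were no longer shared by all 6. A replicate block left it at 0, with 433 regions higher and 226 lower. Deviations of same-numbered libraries correlated at 0.0, and those of the other pairs from -0.03 to 0.03. The numbers thus showed no sign of pairing, but with 3 libraries a genotype these values cannot exclude it. The cause of these shifts was not tested. Depth is unknown, so a missing peak says only that none was called.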

Other observations

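Of the 20 other bipolar genes, 1 had a start-site peak in the 3 SE/SE libraries and in no wild-type one, as at Grm6. It was Gnb3, the G protein beta subunit of ON bipolar cells and cones. The Grm6 peak was near the limit of 2 lists and absent at equal length. Whether this also holds for Gnb3 was not examined. Over 17492 protein-coding genes the share with this pattern was 0.703%. Fgf15, a growth factor of retinal progenitors, had the reverse pattern by summit, but a peak reached within 1 kb in 3 libraries of each genotype when any part of the peak was counted.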
